A study of Mus musculus with 16 samples.

Results

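Genes of tendon, joint lining and connective tissue fibroblasts were followed across bone marrow cell sorts of mice without a working Mir9-1 locus (miR-9-1-deficient) and of wild-type controls. The 10 genes, Scx, Mkx, Tnmd, Thbs4, Tnxb, Prg4, Cilp, Cilp2, Clec3b and Dpt, were taken by name from the 20056 gene symbols of the deposited table, and all 10 were found there. The RNA was selected on poly(A) and came from sorted osteoblasts (OBs) and sorted mesenchymal stem cells (MSCs), 16 libraries in all. The groups were 4 miR-9-1-deficient OB, 4 wild-type OB, 4 miR-9-1-deficient MSC and 4 wild-type MSC libraries. The locus, 1 of those that encode the microRNA miR-9, had been edited in the germline with CRISPR/Cas9, and the study asked about its part in the marrow niche of lymphocyte formation. Beside genotype, cell type and animal number the labels name no other allele or agent, and no gate, age, strain, sex or count of edited founder lines. The deficient mice are called E to H here and the wild-type mice A to D, with the same letter for the OB and the MSC library of an animal number.

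Tendon and ligament cells are fibroblasts that lay down aligned collagen, and the transcription factors scleraxis (Scx) and Mohawk (Mkx) are known to drive their program. Joint-lining fibroblasts and surface chondrocytes secrete lubricin (Prg4), which lowers friction between joint surfaces. Fibroblasts of loose connective tissue around muscle, vessels and bone make tenascin-X (Tnxb), tetranectin (Clec3b) and dermatopontin (Dpt), which bind or organise collagen and other matrix. Cells of these kinds lie outside the marrow, at attachments, joint surfaces and the bone surface.

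Stretches just upstream of a RefSeq start site are shown for 3 of the genes. They were picked because Cilp and Cilp2 are close relatives whose values parted between genotypes, and because Tnmd stood beside Cilp2 in both sorts. Each is the 150 bases before the RefSeq start on GRCm38.p6, written 5′ to 3′ on the gene's strand. GENCODE puts the start of Cilp2 at 69887687, so the Cilp2 window lies inside the GENCODE gene. The Tnmd window runs past the GENCODE start at 133850980. Capitals mark CANNTG, the E-box motif that scleraxis and other basic helix-loop-helix factors can bind. The motif is its own reverse complement, so both strands were searched at once.
Cilp2, chr8:69887393-69887542, minus strand: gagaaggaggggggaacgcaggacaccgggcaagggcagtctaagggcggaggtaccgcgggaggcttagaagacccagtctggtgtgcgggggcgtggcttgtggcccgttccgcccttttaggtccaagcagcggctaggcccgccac
Cilp, chr9:65265030-65265179, plus strand: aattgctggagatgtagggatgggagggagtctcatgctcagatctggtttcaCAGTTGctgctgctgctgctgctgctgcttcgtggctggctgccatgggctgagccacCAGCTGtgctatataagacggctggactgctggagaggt
Tnmd, chrX:133850858-133851007, plus strand: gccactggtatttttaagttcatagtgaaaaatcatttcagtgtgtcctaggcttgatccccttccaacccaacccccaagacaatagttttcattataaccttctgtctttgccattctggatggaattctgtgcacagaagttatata
The Cilp window held 2 such motifs, beginning 97 and 39 bases before the start, and the Cilp2 and Tnmd windows held 0. Windows of 6 of the 10 genes were searched, and the others among them held 3 (Dpt), 1 (Thbs4) and 1 (Tnxb). Mkx was left out of this search, and Prg4, Scx and Clec3b had no RefSeq promoter entry. At least 1 motif was present in 47.7% of the 32851 windows of this length, so a match or its absence is a description of these letters only.

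Recovered whole reads per library ran from 15543693 to 18962771 in OBs and from 10148197 to 14246986 in MSCs. The targeted Mir9-1 locus held at most 3 reads in a deficient library and at most 16 in a wild-type one, and 0 in all 8 MSC libraries, so it did not check the genotype labels. The OB label went against its markers. Of 14 osteoblast and bone matrix genes tested between the wild-type sorts, 0 were higher and 9 were lower in OBs than in MSCs. By contrast, 10 of 10 blood progenitor and 11 of 11 erythroid genes were higher in OBs. Neutrophil and B-lineage markers ran the other way, counted over genes that reached the filter on low values in both sorts. Of 12 neutrophil genes 10 were lower in OBs and 1 higher, and of 7 B-lineage genes 5 were lower and 1 higher. Of all genes tested, 34.4% passed and were higher in OBs, and 35.5% passed and were lower. Both Xist, the transcript of X inactivation, and the Y-linked Ddx3y were present in every OB library, at 3719 to 8053 and 649 to 1939 normalized counts. In MSCs the libraries of mice E, F and A held 1848 to 3355 normalized counts of Ddx3y, and the other 5 held 29.8 to 78.1. Xist ran the other way in MSCs, at 291 to 392 in E, F and A and 11937 to 14158 in the others. OB libraries thus held together what MSC libraries held apart, and an OB library cannot be taken as the RNA of 1 animal. Whether animals were pooled is not given by the labels, so p-values measure only the spread between these libraries. All 10 genes were detected in all 16 libraries, with at least 6 reads. In bulk libraries, fewer cells of a type and less RNA per cell cannot be told apart.

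**Figure D1:**
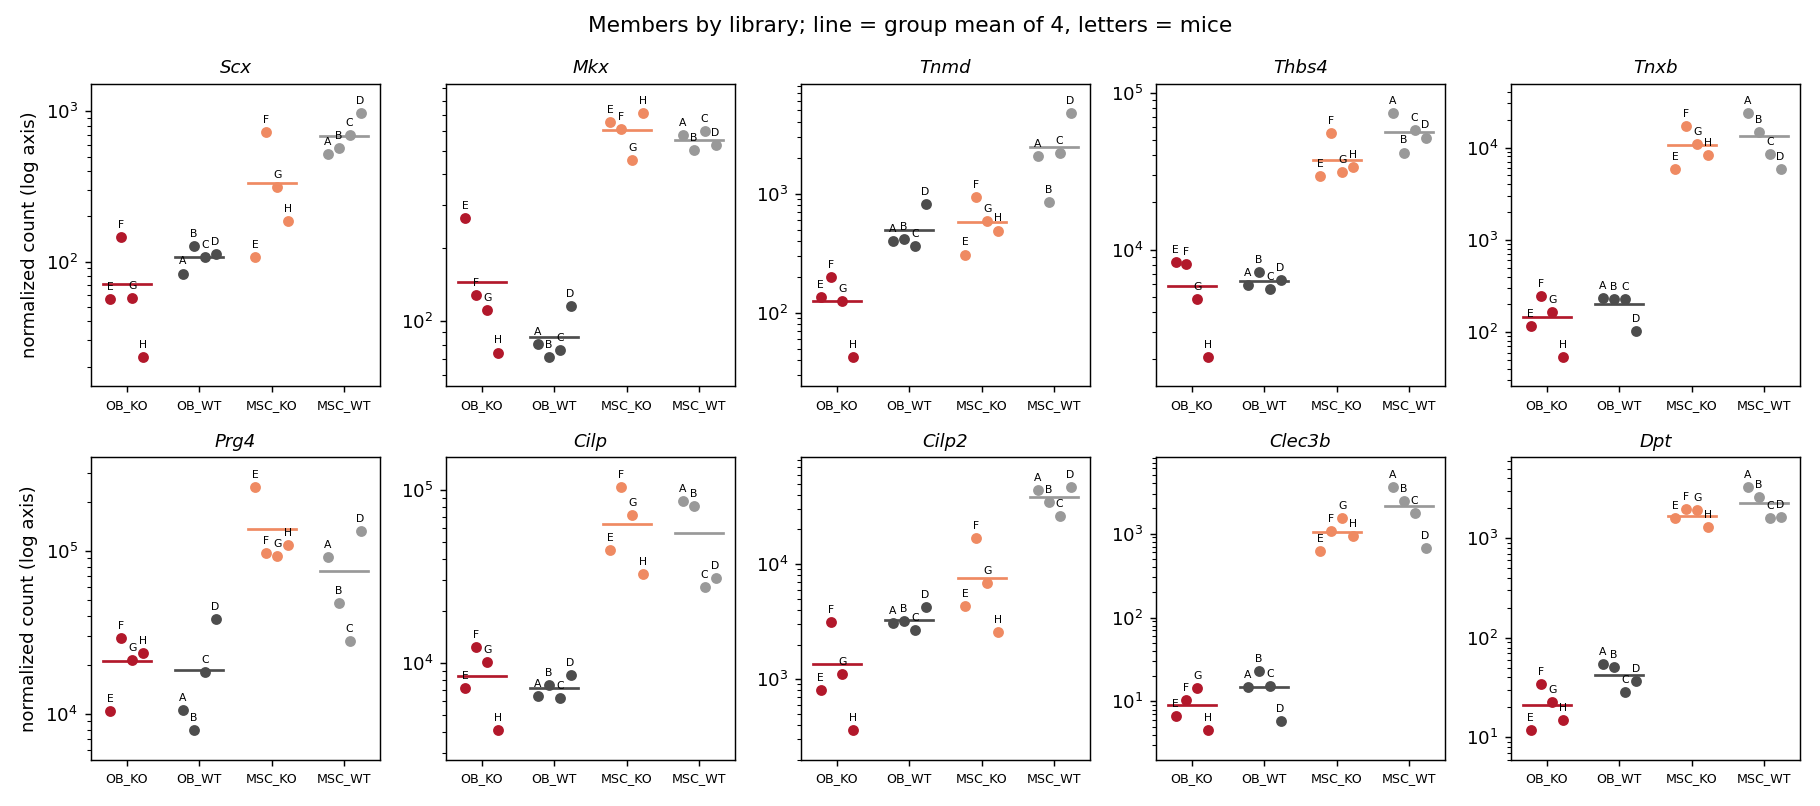
Normalized counts (log axis) of the 10 genes in each library, with 1 point per library, letters for mice and a line at the mean of 4. All 10 genes have lower means in the OB groups than in the MSC groups of the same genotype, Cilp2 separates deficient from wild-type MSC libraries, and Tnmd separates deficient from wild-type OB libraries.

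In MSCs, Cilp2 was the gene of the 10 that passed the test between genotypes, and it fell in deficient libraries. Cilp2 encodes a secreted matrix protein related to the cartilage intermediate layer protein. It stood at 4343, 16839.9, 6787 and 2557 normalized counts in the deficient MSC libraries of mice E to H, against 43750, 34751, 26402 and 47075 in the wild-type libraries of mice A to D. Every deficient library lay below every wild-type one, with mouse F nearest to them. The log2 fold change was -2.63 ± 0.46 (standard error; limma, Benjamini-Hochberg adjusted p = 0.0348), a 6.21-fold difference. Over all 14964 genes tested in MSCs, 1.06% passed in either direction, 0.501% higher and 0.561% lower, and the groups did not overlap for 12.4%. The 159 genes that passed were 75 higher and 84 lower, a split that was 87 to 60 with edgeR and 688 to 508 with DESeq2.

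The Cilp2 call was near the threshold. With any 1 library other than mouse F of the deficient group left out, that is A, B, C, D, E, G or H, its adjusted p lay between 0.0817 and 0.101. Without deficient mouse F, where 2261 of all genes passed, it was 0.000667, with a log2 fold change of -3.13. The edgeR test gave -2.30 with an adjusted p of 0.0552, and DESeq2 gave -2.30 with 0.00677. Over all genes edgeR called 147 and DESeq2 1196. Mean log2 levels of 15 skeletal muscle markers were 5.48 and 7.64 in the deficient MSC libraries of G and H, while the remaining 6 MSC libraries lay at 3.30 to 4.71. With that level as a covariate Cilp2 stood at -2.13 with an adjusted p of 0.130, and without G and H at -2.12 with 0.256. Within the sets of MSC libraries that Ddx3y separates, mice E and F lay below A, and mice G and H below B, C and D. This order follows from the lack of overlap between the genotypes and is no further test. With the Ddx3y level as a covariate, chosen after the values were seen, Cilp2 stood at -2.80 with an adjusted p of 0.0466.

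Cilp, whose protein lies in the interterritorial matrix of cartilage and binds growth factors of the TGF-beta family, did not move with its relative. It stood at 45129.6, 104823, 72114 and 32909 normalized counts in deficient MSC libraries, against 86572, 80574, 27402 and 30866 in wild-type ones. These ranges overlapped almost wholly, and the log2 fold change was 0.23 ± 0.46 (adjusted p = 0.797, limma). In OBs the deficient libraries held 7158, 12419, 10078 and 4062 and the wild-type ones 6469, 7484, 6276 and 8526 (log2 fold change 0.12 ± 0.29, adjusted p = 0.922). The sign of the Cilp difference turned when single libraries were left out in either sort.

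The ratio of Cilp to Cilp2 within a library showed the gap between the 2 genes directly. Deficient OB libraries held 8.91, 3.95, 9.12 and 11.3 times as many Cilp as Cilp2 counts, against 2.11, 2.35, 2.34 and 2.01 times in wild-type OB libraries. Deficient MSC libraries held 10.4, 6.22, 10.6 and 12.9 times as many, against 1.98, 2.32, 1.04 and 0.656 times in wild-type MSC libraries. Every deficient library had a higher ratio than every wild-type library of either sort. The mean log2 of Cilp2 over Cilp was -2.96 ± 0.67 in deficient OBs and -1.14 ± 0.11 in wild-type OBs (SD, n = 4 each). It was -3.28 ± 0.45 in deficient MSCs and -0.41 ± 0.84 in wild-type MSCs. The ratio was chosen after the values were seen, and no test is given for it.

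**Figure D2:**
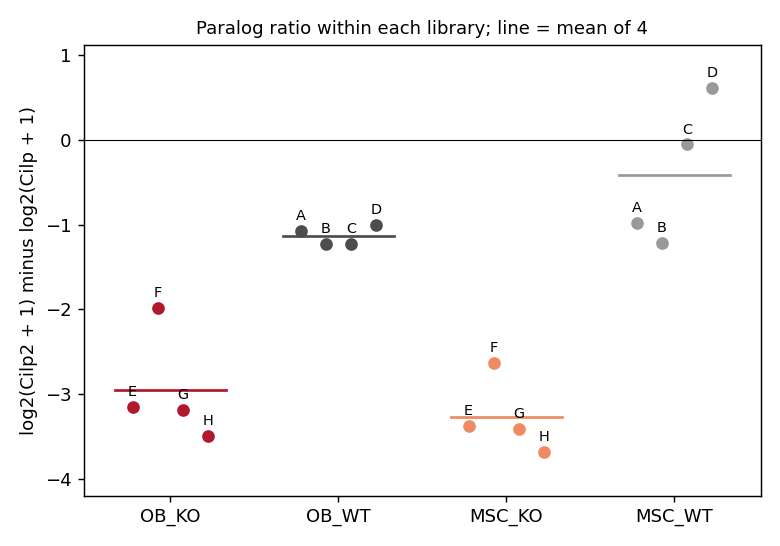
Log2 of Cilp2 over Cilp (each count plus 1) in each library, with letters for mice and a line at the mean of 4. The deficient libraries lie between -3.69 and -1.98, and the wild-type ones between -1.23 and 0.61.

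Among the tendon genes, tenomodulin (Tnmd), a transmembrane glycoprotein of mature tendon cells that acts downstream of scleraxis, had the next largest difference. In MSCs it stood at 309, 945, 588 and 491 normalized counts in deficient libraries, against 2073, 845, 2206 and 4771 in wild-type ones. Deficient mouse F lay above wild-type mouse B, and the other deficient libraries lay below all wild-type ones. The log2 fold change was -1.94 ± 0.46 with an adjusted p of 0.0621 (limma), which missed the threshold of 0.05. DESeq2 called it at 0.00987, as did the fit of all 16 libraries at 0.0205, array weights at 0.0177 and the fit without mouse F at 0.0112. Over all genes these settings called 1196, 2251, 1714 and 2261, against 159 in the main test. The edgeR adjusted p was 0.0593, and over all alternatives the p ranged to 0.299.

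In OBs, 0 of the 10 genes passed by limma, where 0.0281% of 14229 genes passed, 0.0211% higher and 0.00703% lower. By unadjusted p under 0.05 there were 3 (Tnmd, Cilp2 and Dpt), where 8.95% of all genes were at that level. The edgeR test called 0 and DESeq2 called 1 (Tnmd), where DESeq2 called 1.36% of all genes. The 4 genes that passed over the whole table were 3 higher and 1 lower, against 9 and 7 after quantile normalization and 114 and 80 with DESeq2. Tnmd stood at 137, 201, 125 and 42.8 normalized counts in deficient OB libraries, against 403, 418, 361 and 813 in wild-type ones. The groups did not overlap, as was so for 5.47% of all genes tested. The log2 fold change of -2.09 ± 0.44 had an adjusted p of 0.182 (limma) and one of 0.0142 with DESeq2. Cilp2 stood at 802, 3146, 1105 and 359 normalized counts in deficient OB libraries, against 3063, 3185, 2683 and 4236 in wild-type ones. Mouse F lay inside the wild-type range and the other 3 deficient libraries below it (log2 fold change -1.70 ± 0.53, adjusted p = 0.379, limma).

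Markers of MSC stroma varied between OB libraries. Their normalized counts summed over 15 genes to 32516 in mouse E and 63615 in mouse F, while the remaining 6 OB libraries lay at 13439 to 25285. With their mean log2 level as a covariate, 250 of all genes passed, 38 higher and 212 lower (1.49%), against 3 higher and 1 lower without it. Of the 10 genes 3 then passed and were lower in deficient OBs: Tnmd at -2.52 (adjusted p = 0.00494, limma), Cilp2 at -2.26 (adjusted p = 0.0121) and Thbs4 at -0.78 (adjusted p = 0.0388). With the OB libraries of E and F left out, 17 of all genes passed and were higher and 71 lower (0.512%), and Tnmd passed at -2.67 (adjusted p = 0.0376) and Cilp2 at -2.36 (adjusted p = 0.0322). Leaving out deficient mouse F alone gave Cilp2 at -2.25 (adjusted p = 0.0485), and leaving out deficient mouse H alone gave Tnmd at -1.64 (adjusted p = 0.0372). Over all genes 30 and 108 passed in these 2 fits.

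The tendon transcription factors did not move as a pair. Scx, the basic helix-loop-helix factor of tendon progenitors, stood at 108, 726, 314 and 186 normalized counts in deficient MSC libraries, against 523, 567, 689.9 and 975 in wild-type ones. Mouse F lay inside the wild-type range and the other 3 deficient libraries lay below it. The log2 fold change was -1.36 ± 0.47 with an adjusted p of 0.132 (limma). Without mouse F it was -1.85 with an adjusted p of 0.00665, and with array weights -1.23 with 0.0390. Over all genes 2261 and 1714 passed in these settings. In OBs Scx stood at 56.6, 146, 57 and 23.3 in deficient and 83.3, 127, 108 and 113 in wild-type libraries, and the groups overlapped (log2 fold change -0.87 ± 0.46, adjusted p = 0.607). Scx (chr15:76457452-76459458, GRCm38) lies on the opposite strand within a longer gene, Bop1, and their annotated exons do not overlap. The protocol does not say that strand was kept, so Bop1 reads outside its exons may be counted for Scx. Bop1 itself averaged 555.7 ± 178 normalized counts in deficient MSCs and 648 ± 48.8 in wild-type MSCs (SD, n = 4 each). Exons of Mkx overlap those of AC148004.2 on the same strand, and exons of Tnxb those of the pseudogene Cyp21a2-ps on the other. Neither AC148004.2 nor Cyp21a2-ps is in the deposited table.

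Mkx, the homeobox factor of tendon, had 656, 612, 459 and 715 normalized counts in deficient MSC libraries and 579, 501, 605 and 527 in wild-type ones. It was the steadiest of the 10 genes in MSCs, with a coefficient of variation of 17.9% in deficient and 8.54% in wild-type libraries. Its log2 fold change in MSCs was 0.13 ± 0.17 (adjusted p = 0.681, limma), and the sign turned with array weights, at -0.06. In OBs Mkx had 265, 128, 111 and 74.4 normalized counts in deficient and 80.9, 71.5, 76.1 and 115 in wild-type libraries. Mouse E of the deficient group stood above the rest, and the difference was 0.61 ± 0.35 (adjusted p = 0.629).

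Thbs4 encodes thrombospondin-4, a secreted matricellular protein enriched in tendon and at muscle attachments. It had 29425, 54999, 31205 and 33671 normalized counts in deficient MSC libraries and 74209, 41521, 58019 and 51729 in wild-type ones. Mouse F was the only deficient library inside the wild-type range. The log2 fold change was -0.61 ± 0.27 with an adjusted p of 0.209 (limma). Without mouse F, where 2261 of all genes passed, it was -0.81 with 0.0408. In OBs it had 8354, 8153, 4874 and 2083 in deficient and 5971, 7219.8, 5619 and 6411 in wild-type libraries, with 2 deficient libraries above and 2 below the wild-type range (log2 fold change -0.29 ± 0.38, adjusted p = 0.842). Leaving out deficient mouse H turned the sign in OBs, to 0.14.

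Prg4 had the highest mean count of the 10 genes in each group and a positive difference in both sorts that did not pass. Deficient MSC libraries held 248022, 96549, 92442 and 108623 normalized counts, against 91405, 47871, 28065 and 133152 in wild-type ones. The groups overlapped, since wild-type mouse D lay above 3 of the deficient libraries, and mouse E lay above all others. In the MSC library of mouse E, Prg4 was the most abundant of all genes and took 1.48% of reads. The log2 fold change was 0.97 ± 0.50 with an adjusted p of 0.274 (limma). In OBs Prg4 had 10385, 29053, 21469 and 23615 in deficient and 10522, 7909, 18171 and 38213 in wild-type libraries (log2 fold change 0.35 ± 0.47, adjusted p = 0.848). The 3′ end of Prg4 (chr1:150449412-150466165, GRCm38) overlaps exons of Tpr on the other strand, and reads there cannot be assigned without strand.

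The 3 genes of loose connective tissue did not pass between genotypes. Tenascin-X (Tnxb), a large glycoprotein that spaces and organises collagen fibrils, had 5782, 17144, 10924 and 8234 normalized counts in deficient MSC libraries and 23726, 14703, 8470.3 and 5859 in wild-type ones. The wild-type range held all but 1 of the deficient values (log2 fold change -0.24 ± 0.42, adjusted p = 0.766, limma). Tetranectin (Clec3b), a plasminogen-binding C-type lectin, had 619, 1085, 1516 and 926 in deficient and 3627, 2425, 1740.2 and 673 in wild-type MSC libraries, again with overlap (log2 fold change -0.86 ± 0.44, adjusted p = 0.269). Dermatopontin (Dpt), which binds decorin and marks fibroblasts of many tissues, had 1583, 1977, 1924 and 1293 in deficient and 3304, 2596, 1589 and 1638 in wild-type MSC libraries (log2 fold change -0.38 ± 0.24, adjusted p = 0.367).

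In OBs these 3 genes did not pass either, and Clec3b and Dpt had the lowest mean counts of the 10. Tnxb had 116, 249, 163 and 54.1 normalized counts in deficient and 236, 231, 228 and 104 in wild-type OB libraries (log2 fold change -0.58 ± 0.44, adjusted p = 0.712, limma). Dpt had 11.8, 34.5, 22.7 and 15 in deficient and 54.2, 51.4, 28.6 and 36.7 in wild-type OB libraries, with mouse F inside the wild-type range and the other 3 deficient libraries below it (log2 fold change -1.06 ± 0.38, adjusted p = 0.437). Clec3b had 6.61, 10.4, 14.6 and 4.51 in deficient and 14.9, 22.8, 15.1 and 5.87 in wild-type OB libraries, which rests on 6 to 20 and 8 to 35 reads (log2 fold change -0.62 ± 0.52, adjusted p = 0.737).

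**Figure D3:**
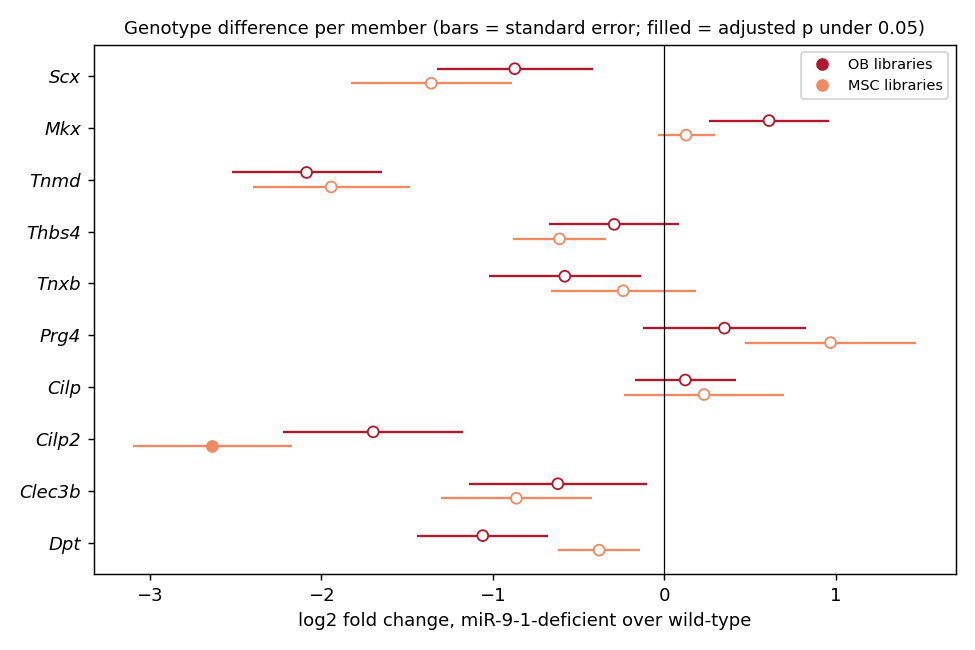
Log2 fold change of each gene, miR-9-1-deficient over wild-type, in OB and in MSC libraries (4 against 4), with bars for the standard error and filled points for an adjusted p under 0.05. Cilp2 in MSCs at -2.63 is the filled point, Tnmd lies at -2.09 in OBs and -1.94 in MSCs, and 7 of 10 genes lie below 0 in each sort.

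Counted together, 0 of the 10 genes passed in OBs and 1 passed in MSCs, and in each sort 7 of 10 differences were negative. The median log2 fold change of the 10 was -0.60 in OBs, where it was -0.02 over all genes tested, and -0.50 in MSCs, where it was -0.03. A difference between the sorts in the genotype effect was not found. The OB effect minus the MSC effect ran from -0.68 (Dpt) to 0.94 (Cilp2), with 0 of 10 genes passing by limma, edgeR or DESeq2, 0 at an unadjusted p under 0.05 (11.5% of all genes) and adjusted p-values of 0.571 to 0.958, where 0.0129% of 15556 genes passed, 0.00643% in each direction. For Cilp2 that difference was 0.94 ± 0.77, so these data cannot set its effects in the 2 sorts apart.

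Summary levels of cartilage and bone markers lay lower in the deficient libraries of both sorts, without overlap. For B-lineage markers in MSCs this was so by mean log2 level and not by summed counts. Cartilage markers summed to 10665 to 37389 normalized counts over 11 genes in deficient MSC libraries, against 56330.5 to 381763 in wild-type ones, and to 31057 to 85924 in deficient OB libraries, against 156183 to 418190 in wild-type ones. The groups did not overlap in either sort, and at most 1 of the 11 markers was at 0 in any library. By gene, 0 of 11 passed in either sort, with medians of -1.93 in OBs and -1.72 in MSCs. Osteoblast and bone matrix markers had mean log2 levels of 7.11 to 9.11 in deficient OBs, 9.41 to 10.16 in wild-type OBs, 9.30 to 10.14 in deficient MSCs and 10.61 to 10.67 in wild-type MSCs. Of 14 tested, 1 passed and was lower in deficient OBs, where 0.00703% of all genes were, and 3 in deficient MSCs, where 0.561% were. B-lineage markers had mean log2 levels of 3.59 to 4.71 in deficient MSCs and 5.89 to 6.94 in wild-type MSCs, with 4 of 10 passing and lower, against the same 0.561%. Their summed counts overlapped, at 2108 to 3664 in deficient and 3074 to 3837 in wild-type MSCs. Of the markers that passed in MSCs, 1 of the bone and 2 of the B-lineage genes reached the filter in both genotypes, and the others only through wild-type libraries. The part of these cells in the values of the 10 genes was not tested.

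Wider lists of the same tissues held 7 calls between genotypes in MSCs, where 1.06% of all genes passed. None of these calls held under 3 alternatives, since 0 of all genes passed in MSCs with the muscle level as a covariate, without G and H, or without wild-type mouse B. Of 36 tendon regulators and tendon matrix genes tested in MSCs, 0 passed and were higher and 1 was lower. It was Kera, the small leucine-rich proteoglycan keratocan, with 188 ± 202 normalized counts in deficient MSCs and 1892 ± 426 in wild-type MSCs (SD, n = 4 each; log2 fold change -4.00 ± 0.65, adjusted p = 0.0269, limma). Of 29 joint-lining genes 1 was higher, the integrin subunit gene Itga10, a receptor chain for collagen, with 9041 ± 2303 and 3697 ± 607 (log2 fold change 1.26 ± 0.21, adjusted p = 0.0269). These 2 genes went opposite ways, and their list medians were -0.57 and -0.10.

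Of 38 genes of connective tissue fibroblasts, 1 passed and was higher and 3 were lower in deficient MSCs, with a list median of -0.14. Fbln2, which encodes the elastic fibre protein fibulin-2, averaged 10322 ± 1354 normalized counts in deficient and 5859 ± 1097 in wild-type MSCs (log2 fold change 0.82 ± 0.16, adjusted p = 0.0438, limma). Mfap4, a microfibril-associated protein, averaged 1112 ± 397 and 4981 ± 1615 (log2 fold change -2.16 ± 0.27, adjusted p = 0.0168). The lower genes also included fibrillin-1 (Fbn1), the main microfibril protein, at -1.25 ± 0.22 (adjusted p = 0.0321) and the basement membrane collagen Col15a1, which averaged 2907 ± 3177 in deficient and 15531 ± 4769.9 in wild-type MSCs (adjusted p = 0.044). Of 13 family relatives of the 10 genes, 1 passed and was lower: Itm2a, a membrane protein of the BRICHOS family to which tenomodulin belongs, at -1.47 ± 0.28 (adjusted p = 0.0384).

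In OBs 0 genes of these 4 lists passed by limma. The smallest p-values belonged to Kera at -5.17 ± 0.88 and Col1a1, the main collagen of tendon and bone, at -2.38 ± 0.52, with adjusted p-values of 0.103 and 0.204. Kera averaged 9.95 ± 15.6 normalized counts in deficient OBs, from 0 to 33.2, and 185 ± 48 in wild-type OBs. It reached the filter on low values only through its wild-type libraries, which fixes its direction, so its values are a description. In the joint-lining list the smallest p-values belonged to Col22a1, a collagen of tissue junctions, at -2.53 ± 0.54 (adjusted p = 0.183) and to the hyaluronan link protein gene Hapln1 at -1.62 ± 0.46 (adjusted p = 0.334). In the fibroblast list they belonged to Col15a1 at -2.92 ± 0.50 and the transporter gene Abca8a at 2.57 ± 0.46, with adjusted p-values of 0.103 and 0.112. Among the relatives the thrombospondins Thbs1 at 1.14 ± 0.34 and Comp at -1.49 ± 0.48 had opposite signs, with adjusted p-values of 0.369 and 0.379.

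Between the sorts the 10 genes all had lower means in OBs. Clec3b reached the filter on low values only through its MSC libraries, which fixes its direction, so its values are a description and it is left out of the counts that follow. In deficient mice 9 of 9 passed and were lower in OBs than in MSCs, where 59.6% of all genes tested passed, 29% higher and 30.6% lower, and 7 of 9 did not overlap, where 55.2% of all genes did not. In wild-type mice 9 of 9 passed and were lower, against 69.9% of all genes passing and 35.5% passing and lower, and 8 of 9 did not overlap, against 65.5%. The same 9 passed in both genotypes with the mouse as a replicate block. The median over the 9 was -2.65 in deficient mice and -2.79 in wild-type mice, against -0.02 and 0.01 over all genes.

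**Figure D4:**
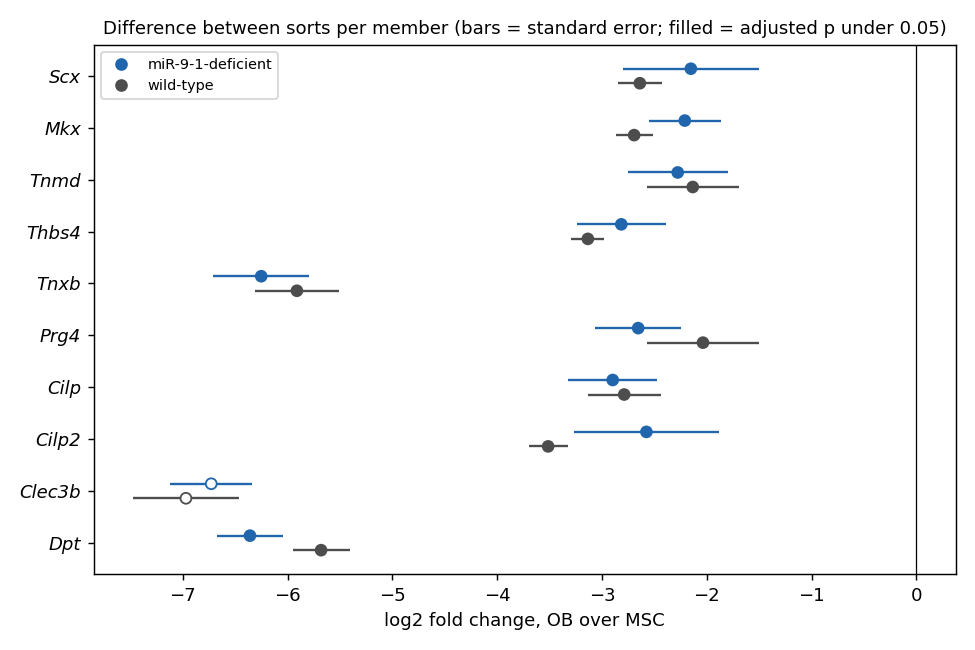
Log2 fold change of each gene, OB over MSC, in miR-9-1-deficient and in wild-type mice (4 against 4), with bars for the standard error and filled points for an adjusted p under 0.05. Clec3b is drawn as an unfilled point because only its MSC libraries carried it past the filter. Tnxb, Clec3b and Dpt lie between -6.97 and -5.68, and the other 7 genes between -3.51 and -2.04.

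The differences between sorts fell into 2 sizes. The 3 loose connective tissue genes had the largest folds. Deficient OBs averaged 9.04 ± 4.45 normalized counts of Clec3b, against 1037 ± 374 in deficient MSCs (SD, n = 4 each; log2 difference -6.73 ± 0.39). Tnxb averaged 146 ± 82 in deficient OBs and 10521 ± 4889 in deficient MSCs (76.2-fold, adjusted p = 1.13e-05, limma). Dpt averaged 21 ± 10.1 in deficient OBs and 1694 ± 319 in deficient MSCs (82.1-fold, adjusted p = 2e-06). In wild-type mice the folds were 60.2 for Tnxb and 51.3 for Dpt, both lower in OBs, with adjusted p-values of 3.17e-07 and 2.79e-08. Clec3b averaged 14.7 ± 6.91 in wild-type OBs and 2116 ± 1239 in wild-type MSCs.

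The 7 tendon, lubricin and Cilp-family genes differed by 4.44-fold (Scx) to 7.45-fold (Cilp) in deficient mice and by 4.10-fold (Prg4) to 11.4-fold (Cilp2) in wild-type mice. Cilp2 averaged 1353 ± 1234 normalized counts in deficient OBs and 7632 ± 6379 in deficient MSCs (log2 fold change -2.58 ± 0.69, adjusted p = 0.00976). In wild-type mice it averaged 3292 ± 665 in OBs and 37994 ± 9318 in MSCs (-3.51 ± 0.19, adjusted p = 5.4e-08). Quantile normalization, which shifted the median of all genes to 0.10 in deficient and 0.17 in wild-type mice, ended the Prg4 call in both, at -1.28 (adjusted p = 0.0644) and -0.72 (adjusted p = 0.264). With mice D and H left out, the Scx call in deficient mice ended too, at -1.89 (adjusted p = 0.0531). As a share of reads, the 10 genes together took 0.212 to 0.467% in OB libraries and 0.933 to 2.01% in MSC libraries.

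Wider lists were mostly lower in OBs too, counted over genes that reached the filter in both sorts. In deficient mice 29 of 33 tendon genes, 18 of 23 joint-lining genes, 34 of 36 fibroblast genes and 10 of 13 relatives passed and were lower in OBs, and 0, 2, 1 and 0 were higher. In wild-type mice 32 of 35, 20 of 28, 33 of 36 and 12 of 13 were lower, and 1, 2, 1 and 0 higher. Over all genes tested, without that restriction, 30.6% passed and were lower in OBs of deficient mice and 29% higher. The shares in wild-type mice were 35.5% lower and 34.4% higher. Among the lower genes of wild-type OBs were tenascin-C (Tnc) at -3.06 ± 0.12, the growth factor gene Tgfb3 at -3.55 ± 0.10, Fbln2 at -5.03 ± 0.13 and asporin (Aspn) at -3.44 ± 0.09, with adjusted p-values of 1.1e-08, 4.5e-09, 4.42e-09 and 4.5e-09 (limma). The higher genes there were the eyes-absent factor gene Eya1 at 0.38 ± 0.13 (adjusted p = 0.0206), the ETS factor gene Erg at 1.77 ± 0.20 (adjusted p = 1.38e-05), the hyaluronidase gene Hyal2 at 0.43 ± 0.16 (adjusted p = 0.0357) and Cd34 at 1.25 ± 0.19 (adjusted p = 0.000133). Erg and Cd34 are also made by blood progenitors and endothelium. Mural cell markers were lower in OBs for 7 of 9 genes in deficient mice and 9 of 9 in wild-type mice. MSC stroma markers were lower for 8 and 13 of 15, with 2 of the 15 higher in each genotype. Cartilage markers ran the other way, with 6 of 9 higher and 1 lower in OBs of deficient mice, and 6 of 10 higher and 1 lower in wild-type mice. The part of any 1 cell type in these differences was not tested.

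Per kilobase of exon, Prg4 stood highest in each of the 4 groups. It reached 4937 ± 1832 normalized counts per kb in deficient OBs, 4370.1 ± 3205 in wild-type OBs, 31871 ± 17459 in deficient MSCs and 17552 ± 10950.2 in wild-type MSCs (SD, n = 4 each). Thbs4 and Cilp came next in each group, and their levels lay within each other's spread, at 17139 ± 4165 and 13253 ± 7422 per kb in wild-type MSCs. In wild-type MSCs they also lay within the spread of Prg4. Cilp2 followed in each group, at 314 ± 286 per kb in deficient OBs, 763 ± 154 in wild-type OBs, 1769 ± 1479 in deficient MSCs and 8807 ± 2160.0 in wild-type MSCs. Of the low genes, Clec3b, Tnmd, Dpt and Tnxb lay between 2133 ± 1249 and 1080.3 ± 651 per kb in wild-type MSCs, within each other's spread. Scx at 343 ± 101 and Mkx at 135 ± 11.5 per kb were lowest there. In OBs Clec3b, Tnxb and Dpt were the bottom 3 in deficient mice.

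Some genes deviated alike in both libraries of an animal number, and others did not. Wild-type mouse D had the highest Tnmd and Prg4 and the lowest Tnxb and Clec3b of the wild-type group in OBs and in MSCs. Mouse D also had the highest Mkx and Cilp of wild-type OBs, at 0.44 and 0.26 from the wild-type mean (log2). In MSCs these 2 genes lay at -0.06 and -0.68 in mouse D. Deficient mouse F had the highest Scx, Tnmd, Cilp, Cilp2, Tnxb and Dpt of the deficient group in both sorts. Deficient mouse H had the lowest Cilp2 and Cilp in both sorts, and mouse E the highest Prg4 in MSCs and the lowest in OBs. The genes that were high in F included both relatives Cilp and Cilp2, whose ratio in F was still above every wild-type library.

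**Figure D5:**
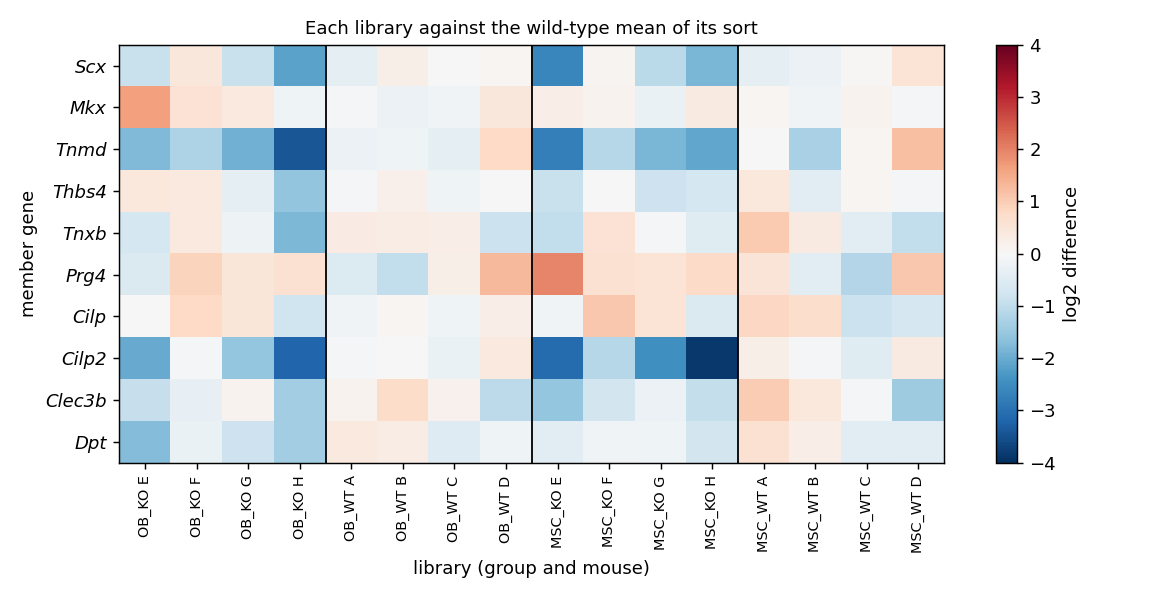
Log2 difference of each library from the wild-type mean of its sort, for the 10 genes (rows) in the 16 libraries (columns, group and mouse). Cilp2 and Tnmd are blue across the deficient columns of both sorts except Cilp2 in OB mouse F, and Prg4 is darkest red in MSC mouse E.

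Profiles over the 16 libraries put the 3 loose connective tissue genes next to each other. The measure was the root mean square difference between log2 profiles centred on their own means, over 15556 genes, and it describes these libraries only, since sort sets most of each profile. Tnxb lay nearest to Dpt at 0.50 and then Clec3b at 0.58, and Dpt and Clec3b were each other's nearest after Tnxb, at 0.70. The 7 other genes lay nearest to genes outside the 10. Scx was nearest to Itm2a at 0.34 and Chst1 at 0.35, Mkx to Pdzrn3 and Il6st at 0.24 each, and Thbs4 to Ddr2 at 0.24 and Plekhh3 at 0.26. Tnmd was nearest to Nrep at 0.54 and Serpinh1 at 0.57, Cilp to Bmp2 at 0.41 and Clu at 0.43, and Cilp2 to Prss35 at 0.42 and Clec11a at 0.50. Prg4 had the loosest match, with Creb5 at 0.68 and Ankrd37 at 0.71.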

How the data were processed

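Poly(A) RNA from sorted OBs and MSCs was sequenced in 16 libraries, 4 per group, per the labels' protocols. The deposited table gives normalized counts (a signal made by the authors from gene counts) for 20056 gene symbols. DESeq2 1.24.0 and the mm10 build stand in the submitters' processing notes. Not given in the sources used here are the aligner, the counting program, its annotation, filters and use of strand. All deposited columns were mapped to samples by title.

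Within each library all deposited values were whole multiples of 1 step (100% whole within 0.01), so whole reads were recovered and used for depth, edgeR 4.0.16 and DESeq2 1.42.0. A count of 0 allows up to 3 reads, which is 1.95 to 2.36 normalized counts in OBs and 3.52 to 4.51 in MSCs. Such limits cover counting error only.

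The main test was limma 3.58.1 in R 4.3.3 on log2(normalized count + 1), with empirical Bayes and trend. Genes entered that reached 10 normalized counts in 4 of the libraries fitted. P-values were adjusted over all genes tested (Benjamini-Hochberg, threshold 0.05). Fold changes are on that scale, which understates changes of low genes. Genotypes were compared within each sort (8 libraries each), sorts within each genotype, and the genotype effects between sorts in 1 fit. The code was tested on simulated data.

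All 10 genes passed the filter in every comparison and are named in each. Clec3b did so between sorts only through its MSC libraries, and counts between sorts leave it out. Of 4 wider lists, up to 4 passing genes per direction, or else up to 2 with the smallest p, could be named. For each of the 10 genes the 2 nearest profiles are named. List genes are given as counts for the sorts of deficient mice and for the difference of effects, and in part for the wild-type sorts. Genes and lists were chosen with earlier results of these data known.

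Animal numbers recur in both sorts, and equal numbers were read as the same mouse. Deviations from the group means were at most weakly correlated between the OB and MSC libraries of a number (r from 0.0241 to 0.285 across genes). For 6 of 8 numbers the own pair had the highest r. Every OB library held both Xist and Ddx3y, so this reading is not secured for OBs. Alternatives were edgeR, DESeq2, array weights, quantile normalization, a pseudocount of 5, a filter of 50 or none, a marker covariate, 1 fit of all 16 libraries, the replicate block, only mice whose animal number is in the 29 series, and each library left out in turn. Coordinates and exon lengths are from GENCODE on GRCm38, and promoters from RefSeq on GRCm38.p6.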

Additional observations from a re-analysis of the deposited data

Results flagged for a closer look

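Of 40 groups of 4 libraries looked at (10 genes in 4 groups), 4 held a library whose gap to the nearest other, as a share of the group's range, was over Dixon's 95% critical value. Chance flags about 1 in 20 groups. Tnmd in the wild-type OB library of mouse D was 813 normalized counts, against 418 in the next and 361 in the lowest wild-type OB library. Thbs4 in the deficient MSC library of mouse F was 54999 normalized counts, against 33671 in the next and 29425 in the lowest of its group. Tnxb in the wild-type OB library of mouse D was 104 normalized counts, against 228 in the next and 236 in the highest of its group. Prg4 in the deficient MSC library of mouse E was 248022 normalized counts, against 108623 in the next and 92442 in the lowest of its group.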

How the results depend on the processing

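In MSCs the number of the 10 genes passing between genotypes was 1 in the main test, 3 with array weights, 0 with edgeR, 2 with DESeq2, 0 in the 29 series of animal numbers, 0 with the muscle level as a covariate, 0 without G and H, 2 in the fit of all 16 libraries, and 0 to 4 with 1 library left out (4 without deficient mouse F, 0 without any other). In OBs it was 0 in the main test, 1 with array weights, 1 with DESeq2, 3 with the stroma level as a covariate, 2 without E and F, and 0 to 1 with 1 library left out. Other alternatives gave the same counts as the main test, and why the counts above differ was not tested. Over all genes in MSCs, 159 passed in the main test, 1714 with array weights, 1196 with DESeq2, 2251 in the fit of all 16 libraries, 46 with the Ddx3y covariate, 2 in the 29 series, 0 with the muscle covariate, 0 without G and H, 2261 without deficient mouse F and 0 to 12 without any other library. Over all genes in OBs, 4 passed in the main test, 6 with a pseudocount of 5, 16 with quantile normalization, 75 with array weights, 194 with DESeq2, 250 with the stroma covariate, 88 without E and F, 23 in the fit of all 16, 8 in the 29 series and 3 to 108 with 1 library left out. Between sorts, with Clec3b counted, 10 of the 10 genes passed in each genotype, 9 with quantile normalization (both genotypes) and 9 in the 29 series (deficient mice), and 10 and 10 with the replicate block, which changed no call. The replicate block as a random term left 0 of 10 passing for the difference of effects.

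Signs turned for genes that did not pass in the main test. In MSCs Mkx (main 0.13) was -0.0552 with array weights, Tnxb (main -0.24) ran from -0.56 to 0.11 with 1 library left out, and Cilp (main 0.23) from -0.0535 to 0.50. In OBs Thbs4 (main -0.29) was 0.15 in the 29 series, -0.53 to 0.14 with 1 library left out, -0.98 without E and F and -0.78 with the stroma covariate, where it passed. Cilp in OBs (main 0.12) was -0.16 with the stroma covariate and without E and F, and -0.10 to 0.43 with 1 library left out. For the OB effect minus the MSC effect, Tnmd (main -0.14) was 0.12 with edgeR, 0.11 with DESeq2, 0.12 in the 29 series and -0.54 to 0.30 with 1 library left out. Tnxb (main -0.34) was 0.0173 in the 29 series and -0.69 to 0.0629 with 1 library left out. Cilp (main -0.11) was 0.0246 with array weights, 0.0589 with edgeR, 0.0524 with DESeq2, 0.24 in the 29 series and -0.38 to 0.20 with 1 library left out. Clec3b (main 0.24) ran from -0.11 to 0.71 with 1 library left out. Of the recomputed values of single genes, 937 kept direction and side of the threshold, 31 turned sign, 16 came to pass and 14 no longer passed. The covariate on Ddx3y and the alternatives for the ratio of Cilp2 to Cilp were chosen after seeing the data, and the ratio kept its direction under all of those run. With a filter of 50 Clec3b and Dpt were not tested in OBs, and no gene was under the main filter, so the exact test planned for such genes was not run. Depth limits Clec3b in OBs most, at 6 to 35 reads.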
